A study of Homo sapiens with 4 samples.

Results

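YAP1 and WWTR1 (also named TAZ), the transcriptional coactivators at the end of the Hippo pathway, were examined together with TEAD1 and 7 direct targets or regulators in TPC1 cells. Genes were chosen by name: YAP1, WWTR1, TEAD1, CTGF, CYR61, ANKRD1, AMOTL1, AMOTL2, LATS2 and AJUBA. Of these 10 genes, 9 were measured among the 13165 genes of the deposited table, and ANKRD1 was not analysed here. None of the 9 differed by as much as 0.32 on the log2 scale between TPC1-Vector and TPC1-INAVA.

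The TPC1 cell line was established from a human papillary thyroid carcinoma. TPC1-Vector cells carried the empty vector, and TPC1-INAVA cells overexpressed INAVA (listed under its older symbol C1orf106) from the same kind of vector. Both lines were grown in DMEM with fetal bovine serum and selected with puromycin. The labels give transfection and the methods retroviral infection as the way the vectors were delivered, and the sources used here do not say whether a line was 1 clone or a pool of cells. RNA was sequenced from 2 libraries in each group, and the authors deposited 1 value per gene and group as FPKM, that is, fragments scaled by transcript length and by the mapped fragments of the library. The libraries of a group could therefore not be compared with each other: no value below has an SD, no difference has a test, and the depth per library is unknown. To give a scale for the differences, each was set beside the differences of all genes at a like level in these columns.

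In the Hippo pathway, the kinases MST1 and MST2 (genes STK4 and STK3) activate LATS1 and LATS2, which phosphorylate YAP1 and TAZ and keep them out of the nucleus. Unphosphorylated YAP1 and TAZ enter the nucleus, bind the TEAD factors and switch on genes such as CTGF and CYR61. The pathway acts largely on the protein and its place in the cell, so transcript levels of YAP1 and WWTR1 do not report its activity, whereas transcripts of target genes are commonly used as a readout.

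TEAD factors bind the letters GGAATG, which were searched on both strands (GGAATG or CATTCC) in the 250 bases before annotated gene starts. RefSeq promoter sequence (GRCh38.p14) was matched for 8 of the 10 genes. CYR61 and TEAD1 were not matched. The promoters of CTGF, AMOTL1 and YAP1 are shown because they held 3, 0 and 1 matches, and the match of AMOTL2 is shown with 10 bases on each side. Capitals mark the matches, and positions are counted back from the base before the start, which is -1.

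CTGF (chr6:131951373-131951622, minus strand): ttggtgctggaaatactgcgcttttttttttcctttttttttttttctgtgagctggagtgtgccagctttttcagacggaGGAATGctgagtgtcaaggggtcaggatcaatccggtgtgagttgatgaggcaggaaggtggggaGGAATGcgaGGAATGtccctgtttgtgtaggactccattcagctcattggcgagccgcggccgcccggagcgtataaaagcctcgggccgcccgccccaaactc
AMOTL1 (chr11:94768106-94768355, plus strand): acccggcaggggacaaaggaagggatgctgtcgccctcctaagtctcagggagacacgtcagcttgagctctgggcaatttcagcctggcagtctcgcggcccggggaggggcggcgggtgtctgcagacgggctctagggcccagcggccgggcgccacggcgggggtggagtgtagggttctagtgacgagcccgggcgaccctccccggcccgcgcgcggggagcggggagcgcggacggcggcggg
YAP1 (chr11:102110197-102110446, plus strand): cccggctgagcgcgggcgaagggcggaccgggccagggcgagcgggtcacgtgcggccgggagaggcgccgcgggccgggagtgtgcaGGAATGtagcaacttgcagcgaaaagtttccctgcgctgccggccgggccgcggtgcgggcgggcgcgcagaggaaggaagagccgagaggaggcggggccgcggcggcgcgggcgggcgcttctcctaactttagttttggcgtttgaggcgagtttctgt
AMOTL2, around the match (chr3:134374501-134374526, minus strand): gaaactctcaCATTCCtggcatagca

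In CTGF the matches began at -169, -104 and -95, and the last 2 lay 3 bases apart. Of 35116 promoter windows of this length, 11.9% held at least 1 match and 0.0826% held 3 or more. YAP1 had its match at -162, in a window that GENCODE release 29 also places in an exon of the long noncoding RNA gene AP001527.2. AMOTL2 had none before its outer start and 1, at -69, before its inner start. AJUBA likewise had none before its outer start and 1, at -59, before its inner start, while LATS2 and both RefSeq starts of WWTR1 had none. In GENCODE, WWTR1 extends further out, to chr3:149736714, and AMOTL1 to chr11:94706431. The bases before those ends were not searched. ANKRD1 had 2 matches, at -220 and -128. GENCODE places parts of several of these windows in exons of the same genes. No base of the LATS2 window or of the outer WWTR1 window lies in an exon. Such exons cover all 250 bases before the inner start of AJUBA, 147 before that of AMOTL2 and 189 in the window of ANKRD1. Before the inner start of WWTR1, exons of WWTR1 and WWTR1-AS1 together cover all 250 bases. A match describes letters only and is not a bound site.

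As a check of the labels, INAVA was at 7.96 FPKM in TPC1-Vector against 123 FPKM in TPC1-INAVA. The thyroid transcription factor PAX8 was at 60.1 and 55.7 FPKM, and FOXE1, another thyroid factor, at 5.26 and 5.89 FPKM. The differentiation genes TG, TSHR and SLC5A5 and the factor NKX2-1 were not analysed here, nor were EPCAM, KRT19, PTPRC and PECAM1. The simple keratins KRT18 (140 and 212 FPKM) and KRT8 (23.4 and 10.5 FPKM) were present and share 1 deposited position, so reads could be divided between them. The fibroblast collagen COL1A1 was under 1 FPKM in both groups. The median log2 fold change of the 12305 genes kept, those averaging 0.5 FPKM or more over both groups, was 0.0033.

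The levels were compared first, since FPKM is per length of transcript and allows genes to be ordered. CYR61 was the most abundant of the 9 genes, at 221 FPKM in TPC1-Vector against 261 FPKM in TPC1-INAVA, and ranked 255th among all genes kept. WWTR1 followed at 144 and 140 FPKM, and CTGF at 61.3 and 71.2 FPKM. AJUBA was at 55.5 and 58.0 FPKM, YAP1 at 47.2 and 47.8 FPKM and AMOTL2 at 41.9 and 48.5 FPKM. TEAD1 was at 35.9 and 37.7 FPKM. LATS2 (15.0 and 15.4 FPKM) and AMOTL1 (8.79 and 10.5 FPKM) were lowest. The order was the same in both groups, except that AMOTL2 stood below YAP1 in TPC1-Vector and just above it in TPC1-INAVA. Without values per library, whether neighbours in this order differ beyond their spread could not be tested.

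**Figure D1:**
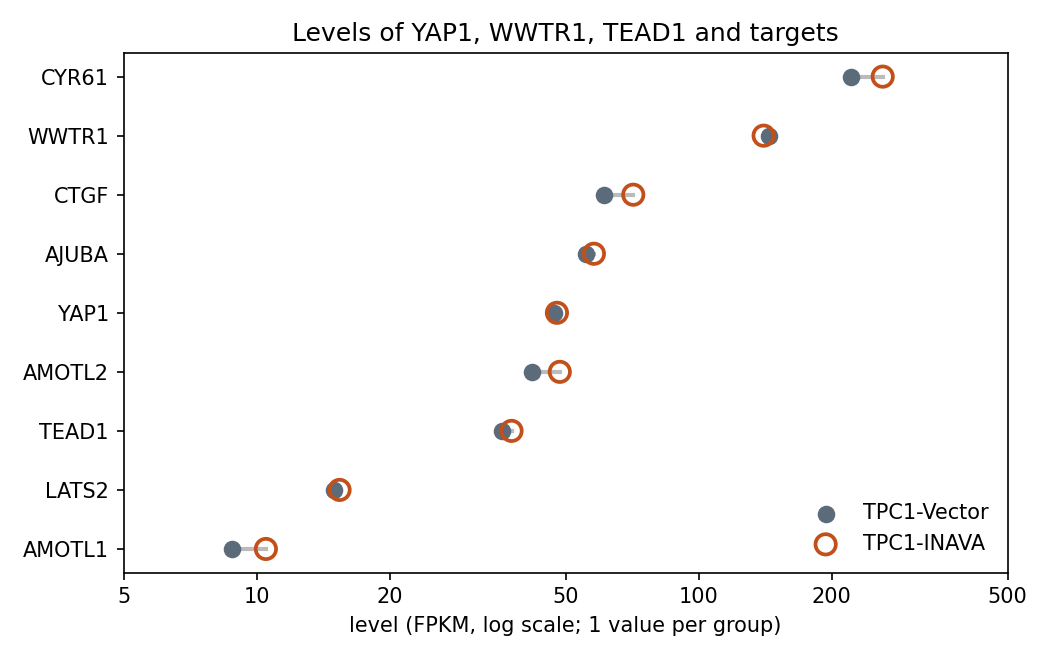
Level of each of the 9 genes (horizontal axis, FPKM on a log scale) in TPC1-Vector (filled circles) and TPC1-INAVA (open circles), 1 value per group without error bars. The levels run from 8.79 FPKM for AMOTL1 to 261 FPKM for CYR61, and the circles of a gene lie close together or overlap in every row.

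The coactivators were at nearly equal levels in both groups. WWTR1 (chr3:149517235-149703273) was at 144 FPKM in TPC1-Vector against 140 FPKM in TPC1-INAVA, 2.63% lower, with a log2 fold change of -0.038. YAP1 (chr11:102110461-102233423) was at 47.2 and 47.8 FPKM, 1.34% higher, with a log2 fold change of 0.019. WWTR1 was thus the more abundant coactivator transcript in both groups, by a ratio of 3.05 to YAP1 in TPC1-Vector and 2.94 in TPC1-INAVA. Their summed level was 191 and 188 FPKM. The antisense gene WWTR1-AS1 is listed at the position of WWTR1 with 0.216 and 0.298 FPKM, and the sources used here do not state whether strand was used in counting, so its reads cannot be told apart from those of WWTR1.

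Of the TEAD factors, through which both coactivators reach DNA, TEAD1 (chr11:12674422-12944737) was the most abundant. Its level was 35.9 FPKM in TPC1-Vector against 37.7 FPKM in TPC1-INAVA (log2 fold change 0.072.) It made up 51.4% of the summed FPKM of TEAD1 to TEAD4 in TPC1-Vector and 52.4% in TPC1-INAVA. TEAD4 (18.0 and 18.2 FPKM), TEAD2 (12.3 and 12.7 FPKM) and TEAD3 (3.60 and 3.43 FPKM) had log2 fold changes of 0.013, 0.036 and -0.058. VGLL4, a cofactor that competes with YAP1 for TEAD, was at 12.2 and 11.2 FPKM, a log2 fold change of -0.13, while VGLL1 and VGLL3 were not analysed here. The deposited position of VGLL4 overlaps that of ATG7, so reads could be divided between them.

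The secreted matricellular proteins CTGF and CYR61 (CCN2 and CCN1), the targets most often used as a readout, were both higher in TPC1-INAVA by a modest amount. CYR61 (chr1:85580761-85583965) was at 221 FPKM in TPC1-Vector against 261 FPKM in TPC1-INAVA, 17.9% higher, with a log2 fold change of 0.24. CTGF (chr6:131948177-131951378) was at 61.3 and 71.2 FPKM, 16.2% higher, with a log2 fold change of 0.21. The pair kept nearly the same ratio, with CYR61 at 3.61 times CTGF in TPC1-Vector and 3.67 times in TPC1-INAVA. Such a ratio within a group does not depend on a constant factor applied to a whole column. Relative to WWTR1, CYR61 stood at 1.54 and 1.86 and CTGF at 0.425 and 0.507, higher by 0.28 and 0.25 on the log2 scale. WWTR1 itself had a log2 fold change of -0.038, which adds to these values. The ratios to YAP1, which was at 0.019, were not computed. Such ratios do not report the activity of the pathway.

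The angiomotin family members AMOTL1 and AMOTL2 bind YAP1 and TAZ and hold them at junctions and in the cytoplasm, and are themselves switched on by YAP1 and TEAD. AMOTL1 (chr11:94768342-94876753) was at 8.79 FPKM in TPC1-Vector against 10.5 FPKM in TPC1-INAVA, 19.4% higher, with a log2 fold change of 0.24. AMOTL2 (chr3:134355345-134375417) was at 41.9 and 48.5 FPKM, 15.8% higher, with a log2 fold change of 0.21. The remaining family member, AMOT, was at 2.53 and 2.27 FPKM, a log2 fold change of -0.13. AMOTL2 was the most abundant of the 3 in both groups, at 4.77 times AMOTL1 in TPC1-Vector and 4.62 times in TPC1-INAVA. Among the measured genes with promoter sequence, those with no GGAATG match were AMOTL1 (log2 fold change 0.24), LATS2 (0.037) and WWTR1 (-0.038). Those with at least 1 match were CTGF (0.21), AMOTL2 (0.21), AJUBA (0.062) and YAP1 (0.019). The part of the letters in these values was not tested.

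The remaining genes act as brakes on the coactivators or on LATS. LATS2 (chr13:20973036-21061583), the kinase that phosphorylates YAP1 and TAZ and is also a target of theirs, was at 15.0 FPKM in TPC1-Vector against 15.4 FPKM in TPC1-INAVA (log2 fold change 0.037.) Its relative LATS1 was at 9.45 and 8.85 FPKM, a log2 fold change of -0.089, and the summed level of both kinases was 24.4 and 24.3 FPKM. AJUBA (chr14:22971174-22982642), a LIM protein that binds LATS kinases and limits their activity, was at 55.5 and 58.0 FPKM, a log2 fold change of 0.062. The related LIM proteins LIMD1 and WTIP had log2 fold changes of 0.26 (8.57 and 10.4 FPKM) and 0.025 (8.84 FPKM in TPC1-Vector). The deposited position of LIMD1 overlaps that of LIMD1-AS1, so reads could be divided between them.

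The 9 genes thus fell into a group of 4 with log2 fold changes from 0.21 to 0.24 (AMOTL2, CTGF, CYR61 and AMOTL1) and a group of 5 within 0.1 of 0 (TEAD1, AJUBA, LATS2, YAP1 and WWTR1), a division made after the values were seen. In all, 8 of the 9 were higher in TPC1-INAVA, against 50.8% of the 12305 genes kept, and 7 of 9 after quantile normalization, where YAP1 was at -0.0053. The median log2 fold change of the 9 was 0.072, against 0.0033 over all genes kept. A difference was counted as called when it passed 0.32 on the log2 scale (25% above or 20% below) or, more strictly, 1.5-fold. Called at 0.32 were 0 of the 9 genes in either direction, against 7.69% of all genes higher and 6.74% lower. At 1.5-fold 0 of the 9 were called, against 2.24% higher and 1.45% lower. The largest log2 fold change, that of AMOTL1, lay at percentile 88.4 of all genes kept and that of WWTR1 at percentile 40.1.

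**Figure D2:**
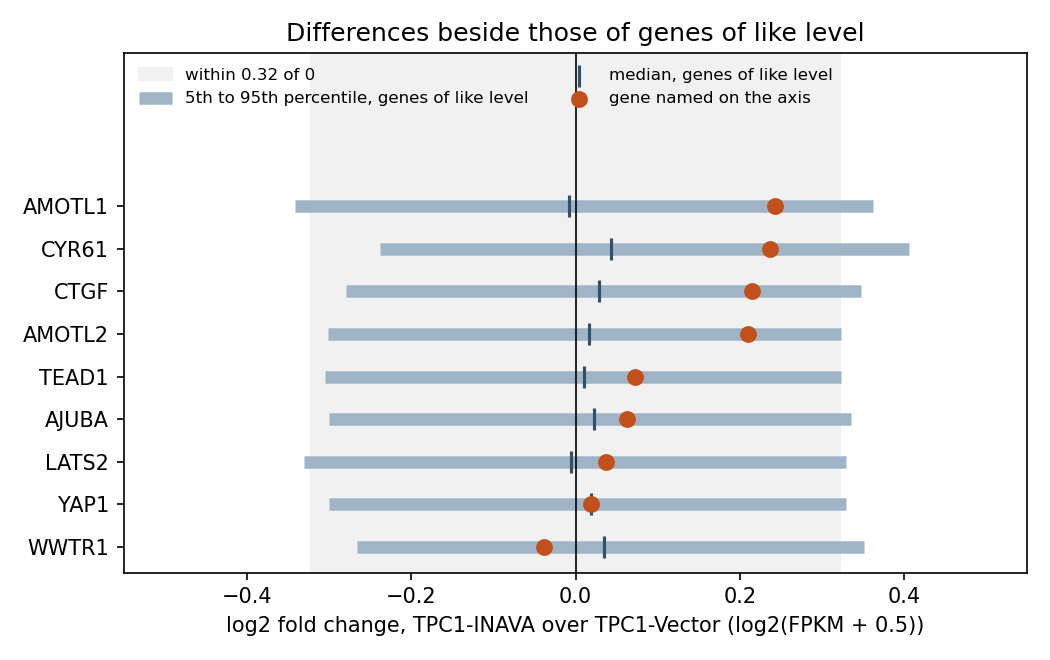
Log2 fold change of each gene (orange circles) beside the 5th to 95th percentile (blue bars) and median (dark ticks) of the log2 fold changes of all genes whose mean FPKM was within 2-fold of its own, with the range within 0.32 of 0 shaded. All 9 circles lie inside their bars, and those of CTGF, CYR61, AMOTL2 and AMOTL1 lie at percentile 87.9 to 90.1 of the genes at a like level.

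Beside genes of like level, all 9 log2 fold changes lay inside the 5th to 95th percentile. The medians of those genes ran from -0.0085 for AMOTL1 to 0.043 for CYR61, and the median for YAP1 was 0.019, equal to its own value to this precision. For CTGF the range of 2128 such genes was -0.28 to 0.35, and CTGF lay at percentile 87.9. For CYR61 it was -0.24 to 0.41 over 490 genes, and CYR61 lay at percentile 88.0. AMOTL1 lay at percentile 90.1 of 4383 genes and AMOTL2 at percentile 88.3 of 2909 genes. YAP1 was at percentile 50.2 and WWTR1 at percentile 29.4. This range is the spread over genes, in which true differences are included, and it does not replace the spread between libraries.

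Neighbouring genes on the chromosome were also compared, since the median over a whole chromosome reached -0.25 (chromosome 10). Within 1 Mb of the 9 genes lay 5 to 23 others averaging 1 FPKM or more, and their median log2 fold change ranged from -0.15 to 0.11. Within 10 Mb the medians lay between -0.051 and 0.051. Around CTGF, 2 of 6 genes within 1 Mb were higher, with a median of -0.15, and CTGF itself was at 0.21. Around AMOTL1 and AMOTL2, 7 of 8 genes within 1 Mb were higher in each case, with medians of 0.10 and 0.079. Around CYR61, 6 of 10 were higher, with a median of 0.11. The part of neighbouring genes in these values was not tested.

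Further targets of YAP1 and TAZ went both ways. All 17 genes of a list of common targets were measured, of which 8 were higher and 9 lower in TPC1-INAVA, and the list median was -0.0063 on the log2 scale. At 0.32 on the log2 scale 2 were called higher and 3 lower, together 29.4% of the list against 14.4% of all genes kept. GADD45A, a stress-induced growth arrest gene, was at 24.8 FPKM in TPC1-Vector against 43.3 FPKM in TPC1-INAVA (log2 fold change 0.79.) CCDC80, a secreted matrix protein, was at 9.42 and 13.6 FPKM, a log2 fold change of 0.50. No other target of the list was called higher with 0.5 FPKM added before the log2.

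Of the lower targets, MYOF, a ferlin that acts in membrane repair and trafficking, was at 74.8 FPKM in TPC1-Vector against 46.6 FPKM in TPC1-INAVA (log2 fold change -0.68.) MYOF lies on chromosome 10 (93306429 to 93482317), where 118 of the 123 genes within 10 Mb were also lower, with a median of -0.34. Within 1 Mb of it, 7 of 8 were lower, with a median of -0.50, and the part of this in the value of MYOF was not tested. IGFBP3, which binds insulin-like growth factors, was at 96.4 and 73.1 FPKM, a log2 fold change of -0.40. RBMS3, which encodes an RNA-binding protein, was at 2.91 and 2.005 FPKM, a log2 fold change of -0.44. At its low level that was at percentile 5.33 of genes of like level, while MYOF was at 0.61, IGFBP3 at 2.26, CCDC80 at 98.0 and GADD45A at 99.6. Among the targets not called, log2 fold changes ran from -0.22 for the phosphatase PTPN14 to 0.31 for the kinase NUAK2. NUAK2 passed 0.32 without a pseudocount (0.34), with 0.1 added (0.33) and after quantile normalization (0.32).

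**Figure D3:**
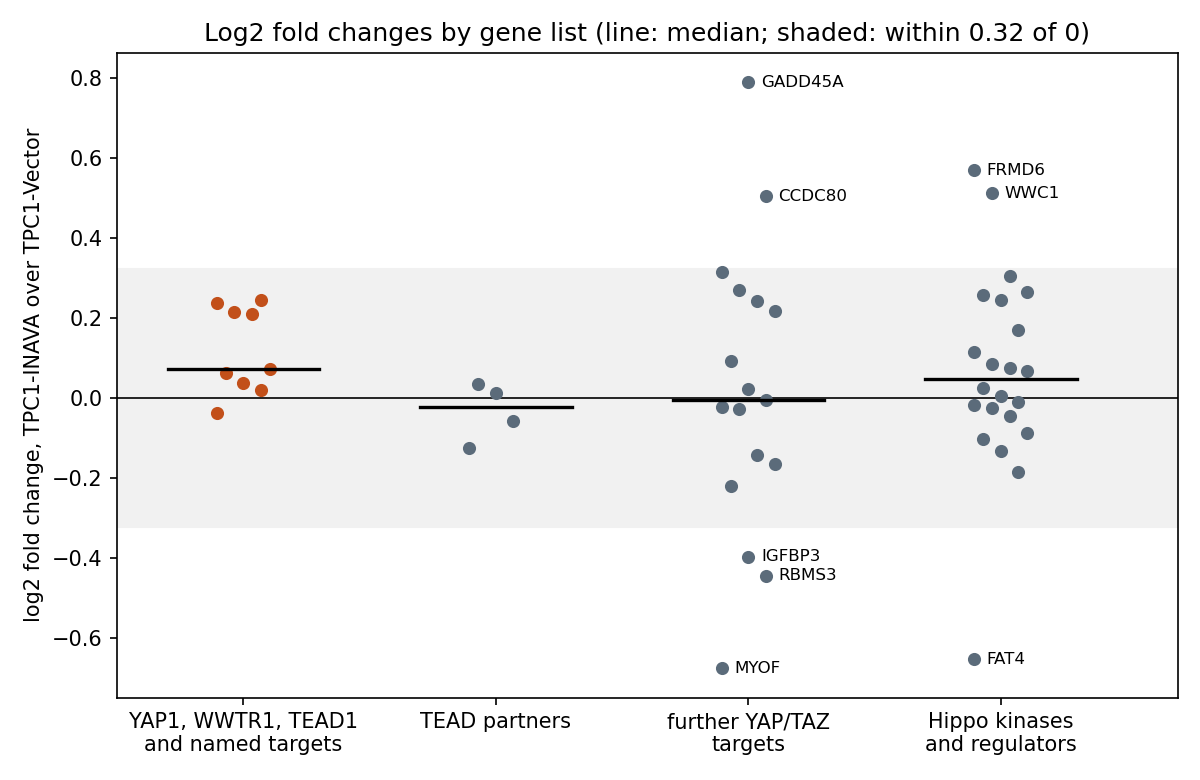
Log2 fold change (vertical axis, 0.5 FPKM added) of each gene of the 4 lists (points), with the list median as a black line and the range within 0.32 of 0 shaded. The 9 genes of the first list and the 4 TEAD partners all lie in the shaded range, whereas 5 of 17 further targets and 3 of 22 kinases and regulators, named beside their points, lie outside it.

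Of the Hippo kinases and upstream regulators, 22 of 23 were measured, with DCHS1 not analysed here. The median log2 fold change was 0.046, 13 were higher and 9 lower, and 3 were called at 0.32 (13.6% of the list against 14.4% of all genes kept). The scaffold proteins FRMD6 and WWC1 (also named KIBRA), which act upstream of LATS, were called higher. FRMD6 was at 12.8 FPKM in TPC1-Vector against 19.2 FPKM in TPC1-INAVA (log2 fold change 0.57), and WWC1 at 9.24 and 13.4 FPKM, a log2 fold change of 0.51. The giant cadherin FAT4 was called lower, at 5.92 and 3.58 FPKM, a log2 fold change of -0.65. Among genes of like level these were at percentile 98.8, 98.0 and 1.31.

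The core of the pathway differed less. MST2 (STK3) was at 23.2 and 25.1 FPKM and MST1 (STK4) at 17.5 and 20.9 FPKM, log2 fold changes of 0.11 and 0.25. STK4 lies on chromosome 20, where 23 of 26 genes within 1 Mb were higher with a median of 0.42, and the part of this in its value was not tested. The adaptor SAV1 and the LATS cofactors MOB1A and MOB1B had log2 fold changes of -0.10, -0.045 and 0.075. NF2, which encodes merlin and recruits LATS to the membrane, was at 30.2 and 36.2 FPKM, a log2 fold change of 0.26. Outside the 3 called genes, the list ran from -0.18 for STRN to 0.31 for RASSF1.

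**Figure D4:**
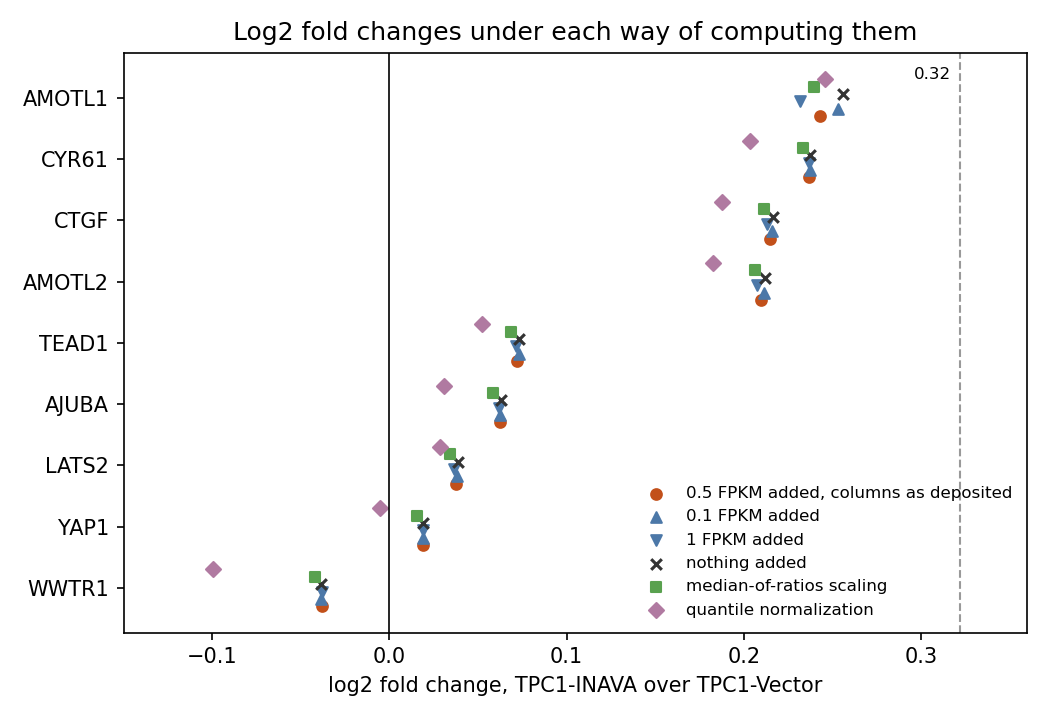
Log2 fold change of each of the 9 genes (horizontal axis) under 6 ways of computing it (symbols), with a dashed line at 0.32. Quantile normalization lies lowest for every gene but AMOTL1 and puts YAP1 at -0.0053 and WWTR1 at -0.099, and every symbol stays left of the dashed line.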

How the data were processed

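RNA from 4 libraries, 2 of TPC1-Vector and 2 of TPC1-INAVA, was sequenced. Per the labels, the submitters' processing notes name CASAVA, Cufflinks 2.1.1, Cuffdiff and build hg38, while the aligner and annotation are not given in the sources used here, and the labels and the methods name different library kits. The authors deposited FPKM values with the libraries of a group combined into 1 column, so depth and replicate spread are unknown. The table also holds the authors' log2 ratios, p-values and q-values, which were not used. Groups were taken from the sample titles.

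Genes averaging 0.5 FPKM or more were kept (12305 genes), and log2 fold changes are differences of log2(FPKM + 0.5), TPC1-INAVA minus TPC1-Vector, which understates the change of weak genes. With 1 value per group no test was made. Called means past 1.25-fold or 1.5-fold on this scale. Genes of like level are those with a mean FPKM within 2-fold. All 10 genes are named, and of the other lists the genes past 1.25-fold and the highest and lowest of the rest, with others named for their role after their values were seen. Genes, lists and alternatives were chosen with earlier results of these data known. Alternatives were pseudocounts of 0.1, 1 and none, no filter or a mean of at least 1 FPKM, and 2 scalings. Deposited starts, counted from 0, were raised by 1. Scripts used Python 3.11.15, numpy 2.4.6 and pandas 2.3.3, and were tested on simulated data. Gene annotation was GENCODE release 29.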

Additional observations from a re-analysis of the deposited data

How the results depend on the processing

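No paired analysis was possible because each gene has only 1 value in a group, and for the same reason leaving out each library was not run. ANKRD1 was not analysed here, so its planned comparison with neighbouring genes has no value. The log2 fold changes of all 9 genes stayed under 0.32 in either direction in every alternative, with 0.26 as the largest. A change of filter could not alter these values, so only the pseudocounts and the scalings bear on them. CTGF ranged from 0.19 to 0.22, CYR61 from 0.20 to 0.24, AMOTL1 from 0.23 to 0.26, AMOTL2 from 0.18 to 0.21 and WWTR1 from -0.099 to -0.038. The exception in direction was YAP1, from -0.0053 (quantile normalization) to 0.019. Over all genes, those at least 1.5-fold lower, 179 with 0.5 added, were 289 with 0.1 added and 329 with nothing added, since a pseudocount shrinks the change of weak genes. Of 43 genes in the other lists, 41 kept their side of the threshold throughout, and NUAK2 and RASSF1 passed 0.32 in some (RASSF1 at 0.33 without a pseudocount). The unknown depth limits every value, most of all those of weak genes such as RBMS3.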

Other observations

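Relatives of the 10 genes outside the pathway lists were looked at for the same comparison. NOV (CCN3), of the same family as CTGF and CYR61, was at 0.2997 FPKM in TPC1-Vector against 0.753 FPKM in TPC1-INAVA (log2 fold change 0.65). It passed the filter of 0.5 FPKM on the mean only through TPC1-INAVA, so it had to differ, and nothing is read from its size. ANKRD2, a relative of ANKRD1, was at 1.28 and 0.888 FPKM, a log2 fold change of -0.36, and all 21 genes within 1 Mb of it on chromosome 10 were lower too, with a median of -0.38. WISP1 and WISP2 were not analysed here.

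The promoter letters were also set against the differences over all genes, with no test. A RefSeq window was matched for 9924 of the 12305 genes kept. The median log2 fold change was 0.0019 over 8637 genes without GGAATG on either strand, 0.0038 over 1287 genes with at least 1 match and 0.013 over 91 genes with at least 2. Genes higher by 0.32 or more on the log2 scale made up 6.99% of those without a match and 8.24% of those with 1 or more, and genes lower by as much 6.24% and 7.46%. At 1.5-fold the shares were 1.83% and 1.94% higher and 1.27% and 1.24% lower. The 7 genes with at least 3 matches, CTGF among them, had a median of 0.18, too few to describe a class. Of the list of further targets, 5 of the 12 with a window had a match (AXL, FOXF2, PTPN14, NUAK2 and TGFB2), against 1287 of the 9924 genes above. Past 0.32 with 0.5 FPKM added were 0 of these 5 targets. Of the 1287 genes with a match, 8.24% were higher and 7.46% lower by as much. At these shares 5 genes are too few for a count of 0 to be read as a result. NUAK2 passed the threshold in 3 alternatives, at 0.32 to 0.34.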
